A study of Monascus purpureus with 6 samples.

Results

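The acetyl-CoA supply genes described here are 5 genes that the study drew for acetyl-CoA biosynthesis and named as upregulated in the *Monascus purpureus* winter strain. They were taken by identifier from the 7491 rows of the count table, namely C5.304 (evm.TU.C5.304) and C5.305 (evm.TU.C5.305) for citrate lyase, the aldehyde dehydrogenase gene C5.251 (evm.TU.C5.251), and the oxidoreductase genes C1.170 (evm.TU.C1.170) and C1.400 (evm.TU.C1.400). An identifier gives a scaffold and a gene number along it. All 5 genes passed the filter on low counts.

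RNA from mycelia was sequenced from 3 cultures of the winter strain and 3 cultures of the YY-1 strain, harvested after 8 days of cultivation, when pigment was accumulating. The libraries of a strain are called a, b and c. The winter strain is a single transformant of YY-1 that carries a randomly inserted hygromycin B resistance cassette, and it was picked for low citrinin production. The YY-1 strain is its untransformed parent, so the cassette, the selection and any other change in this transformant cannot be told apart. The 3 winter libraries held 15194009 to 16004947 counts and the 3 YY-1 libraries held 9661178 to 10595943 counts. Spearman's rho across genes was at least 0.978 between libraries of a strain and at most 0.924 between libraries of different strains.

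Acetyl-CoA is the building block of polyketides and fatty acids, and *Monascus* pigments are polyketides with a fatty acyl side chain. Acetyl-CoA made in mitochondria does not cross the inner membrane freely. It is exported as citrate, which ATP citrate lyase cleaves in the cytosol into acetyl-CoA and oxaloacetate. A second cytosolic route runs from pyruvate through acetaldehyde, which an aldehyde dehydrogenase oxidizes to acetate, and acetyl-CoA synthetase then activates the acetate. In *Aspergillus nidulans*, ATP citrate lyase consists of a pair of subunits, AclA and AclB, whose genes are neighbours in the genome. The sources used here call both C5.304 and C5.305 citrate lyase and do not say which subunit either encodes. C1.170 is called an oxidoreductase in one place and a lactate dehydrogenase in another, and its Gene Ontology terms name methyltransferase activity and cobalamin biosynthesis, so its role is not settled by these sources. For C1.400 an oxidoreductase activity is given.

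All 5 genes had higher expression levels in the winter strain at an adjusted p below 0.05 in edgeR's quasi-likelihood test over 7355 genes. Of all tested genes, 22.5% were called higher and 25.5% lower in the winter strain, and the median log2 fold change over all genes tested was -0.03. Among the 5 genes the median was that of C1.170, which was 2.84-fold higher. The study picked these genes for their increase in the same libraries, so that their direction is not independent evidence. Levels are given as CPM after TMM normalization, that is, counts divided by a library size that is itself corrected by a trimmed mean of the log ratios between libraries, which are not divided by gene length and are compared between libraries for a gene only. In RNA from whole mycelium, more transcript per hypha and more hyphae that express a gene cannot be told apart.

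The citrate lyase gene C5.304 had 2399, 1744 and 2288 CPM in winter a, b and c, against 992, 966 and 657 CPM in YY-1 a, b and c. C5.305, the other citrate lyase gene, had 1999.7, 1485 and 1878 CPM in winter a, b and c, against 668, 640.3 and 429.9 CPM in YY-1 a, b and c. In both genes winter replicate b was the lowest winter library and YY-1 replicate c the lowest YY-1 library, and the strains did not overlap. The log2 fold change was 1.30 for C5.304 (SE, the standard error, 0.23, edgeR adjusted p = 0.00117) and 1.63 for C5.305 (SE 0.23, edgeR adjusted p = 0.000298). Ordered by increase, C5.305 stood at place 230 and C5.304 at place 384 of 7355 genes.

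The aldehyde dehydrogenase gene C5.251 had 4341, 3090.5 and 4864 CPM in winter a, b and c, against 1839, 3015 and 2248 CPM in YY-1 a, b and c. The lowest winter value lay only just above the highest YY-1 value, which came from replicate b. Scaled by library totals alone, an alternative chosen after the data were seen, the lowest winter value was 3211 CPM and the highest YY-1 value 3321 CPM, so that the strains overlapped. Its log2 fold change was 0.79 (SE 0.26, edgeR adjusted p = 0.0292), and the call was lost without winter replicate a (0.75, edgeR adjusted p = 0.0735), winter replicate c (0.65, edgeR adjusted p = 0.134), YY-1 replicate a (0.68, edgeR adjusted p = 0.0928) or YY-1 replicate c (0.76, edgeR adjusted p = 0.0610). By increase, C5.251 was at place 971 of 7355 genes.

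The oxidoreductase gene C1.170 had 402, 335 and 411 CPM in winter a, b and c, against 126, 156 and 122 CPM in YY-1 a, b and c. These were the steadiest values of the 5 genes, with a pooled within-strain SD of 0.18 on the log2 scale, against a median of 0.22 over all genes tested. Its level was 2.84-fold higher in the winter strain (SE of the log2 fold change 0.17, edgeR adjusted p = 8.22e-05).

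The oxidoreductase gene C1.400 had 17.9, 9.38 and 18.2 CPM in winter a, b and c, against 4.92, 4.11 and 3.95 CPM in YY-1 a, b and c. Its YY-1 values rested on only 38 to 50 counts a library. Winter replicate b lay far below winter a and c, and the SD on the log2 scale was 0.54 in the winter strain and 0.16 in the YY-1 strain. Its log2 fold change of 1.81 (SE 0.28, edgeR adjusted p = 0.000489) was nevertheless the largest of the 5 genes, at place 185 of 7355 genes, and ranged over 1.65 to 2.06 when single libraries were dropped.

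Together the 5 genes held 0.841%, 0.692% and 0.900% of all counts in winter a, b and c, against 0.382%, 0.527% and 0.329% in YY-1 a, b and c. This share uses no TMM factor but is itself a scaling by library totals. C5.251 carries much of it, and the strains did not overlap. Under TMM scaling every winter library was above every YY-1 library in all 5 genes, as it was in 26.8% of all genes tested. Whichever library was dropped, the 4 genes other than C5.251 were still called in edgeR, with an adjusted p of at most 0.00671, for C5.304.

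**Figure D1:**
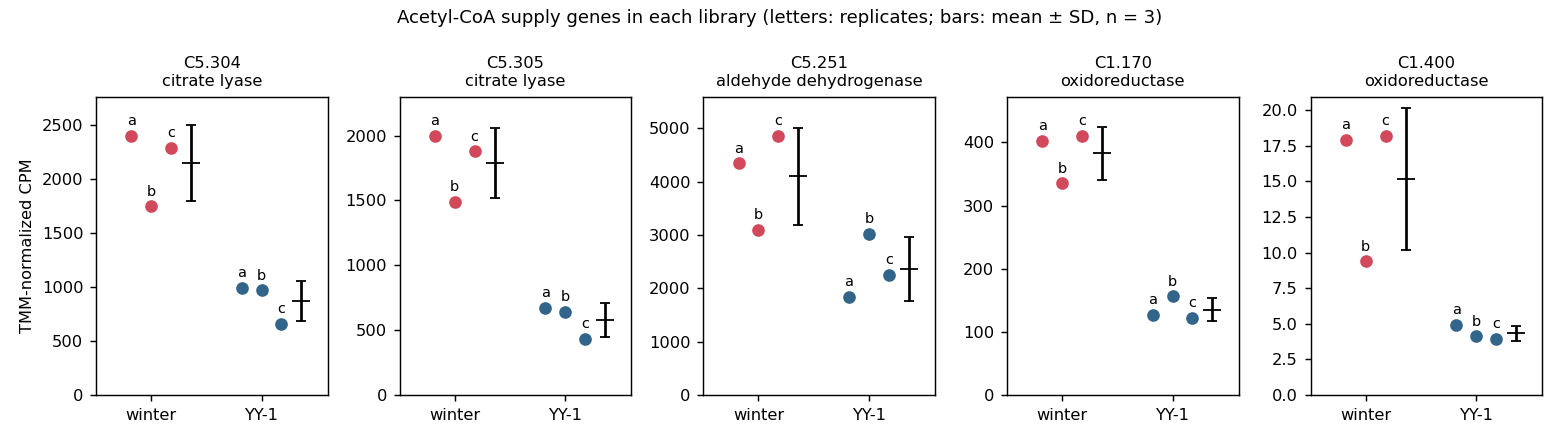
TMM-normalized CPM of the 5 acetyl-CoA supply genes in each library (points, with the replicate letter), with the mean and SD of 3 libraries a strain (black bars). Each panel has its own vertical axis from 0. The winter points lie above the YY-1 points in every panel, and the gap is narrowest for C5.251, where YY-1 replicate b reached 3015 CPM and winter replicate b 3090.5 CPM.

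C5.304 and C5.305 have consecutive gene numbers on scaffold C5, which allowed the counts of both citrate lyase genes to be compared within a library, where library size and scaling cancel. The ratio also depends on the lengths of their unique exons, so it is read only between libraries. The log2 ratio of C5.304 over C5.305 was 0.26, 0.23 and 0.29 in winter a, b and c, against 0.57, 0.59 and 0.61 in YY-1 a, b and c. The ratio was lower in every winter library than in every YY-1 library, while it hardly varied within a strain. As a plain ratio it averaged 1.20 ± 0.0222 in the winter strain and 1.51 ± 0.0221 in the YY-1 strain (SD, n = 3 each).

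Of the counts on both genes, C5.304 took 54.5% (95% Clopper-Pearson interval 54.2% to 54.9%), 54.0% (53.6% to 54.4%) and 54.9% (54.5% to 55.3%) in winter a, b and c. In YY-1 a, b and c it took 59.8% (59.0% to 60.5%), 60.1% (59.4% to 60.8%) and 60.5% (59.5% to 61.4%). No winter interval met a YY-1 interval, and within a strain only those of winter replicates b and c failed to overlap. The intervals cover counting error only.

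The difference of the log2 ratio, winter minus YY-1, was -0.33 with a 95% interval of -0.68 to 0.02 in limma, fitted to 7216 pairs of consecutive genes, and it did not pass the threshold (limma adjusted p = 0.104). That fit estimates the spread of a pair largely from the other pairs, and gave a SE of 0.16. The strains did not overlap, for which the exact two-sided permutation test of 3 against 3 libraries gives p = 0.1, the smallest it allows. Among all pairs of consecutive genes, 47.9% were called in limma, and in 58% the strains did not overlap, so a separated ratio was common. C5.305 therefore increased more than C5.304 in these libraries by a shift that was small beside the median absolute shift of 0.63 over all pairs, and that the fitted test did not call.

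What set the citrate lyase pair apart in description was its steadiness within a strain. The pooled within-strain SD of its log2 ratio was 0.02, the lowest of all 7216 pairs, whose median was 0.29. It was also the lowest of the 818 pairs in which both genes averaged at least 1000 counts, a limit chosen after the data were seen, whose median was 0.27. The 2 pairs next in order had an SD of 0.03 each. Since the place in this order was found by looking over all pairs, it carries no test. C5.304 and C5.305 each had a within-strain SD of 0.29 on the log2 scale, so the steady ratio came with levels that themselves moved between cultures.

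Both genes of this pair were called higher in the winter strain, as were both genes of 7.08% of the 7216 pairs. Among consecutive pairs of the pigment genes C5.133 to C5.137, the pooled SD was 0.04 for C5.133 over C5.134, place 9 in the order, and 0.08 to 0.09 for the other 3 pairs. All 4 pigment ratios were called different between the strains, as were 47.9% of all pairs, with log2 differences of 0.69 to 0.87 in size and limma adjusted p values of 0.00196 to 0.00653. The fatty acid synthase genes C5.127 and C5.128, a pair chosen after its values were seen, had a pooled SD of 0.10 and a log2 difference of 0.29 (limma adjusted p = 0.156).

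**Figure D2:**
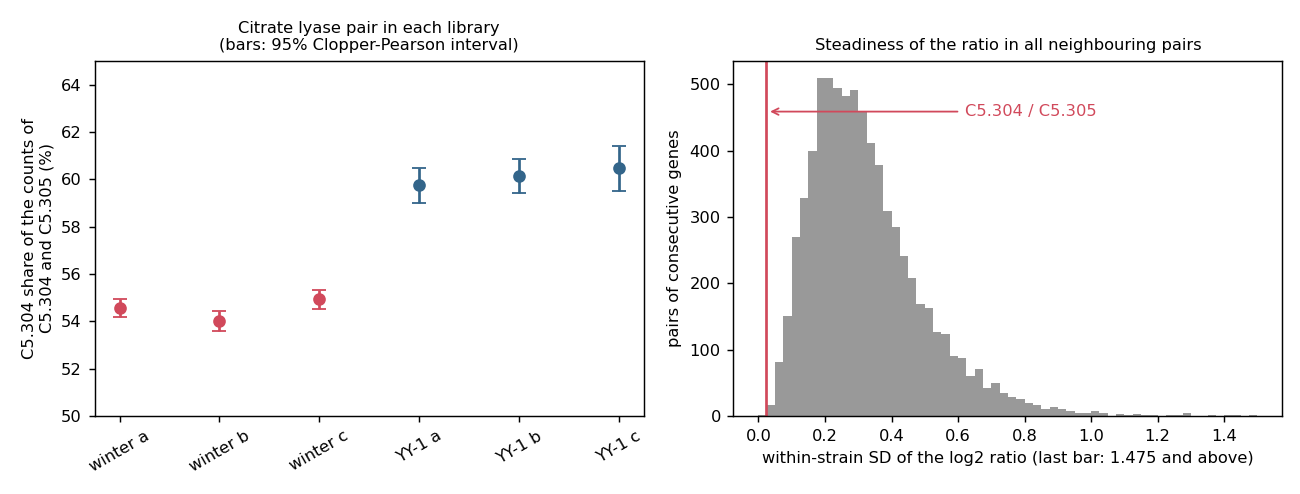
Left, the share of C5.304 in the counts of C5.304 and C5.305 in each library in percent, with 95% Clopper-Pearson intervals, on an axis from 50 to 65%. The winter libraries lie at 54.0% to 54.9% and the YY-1 libraries at 59.8% to 60.5%. Right, the number of consecutive gene pairs by the within-strain SD of their log2 ratio, with the citrate lyase pair marked by the line at 0.02, at the left end of the distribution.

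The study drew 8 further genes for acetyl-CoA biosynthesis, of which 1 was called higher and 1 lower in the winter strain, with a median log2 fold change of -0.03. The higher gene was the aldehyde dehydrogenase gene C6.127, with 627, 461 and 572 CPM in winter a, b and c, against 126, 164 and 70.1 CPM in YY-1 a, b and c (log2 fold change 2.20, SE 0.29, edgeR adjusted p = 0.000180). It increased more than any of the 5 acetyl-CoA supply genes by the fitted value. The study also named C6.127 as upregulated, in the same statement as those 5 genes. The lower gene was the monooxygenase gene C1.929, with 36.7, 26.2 and 28.2 CPM in winter a, b and c, against 59.5, 53.3 and 59.0 CPM in YY-1 a, b and c (log2 fold change -0.91, SE 0.16, edgeR adjusted p = 0.00116).

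The other aldehyde dehydrogenase genes did not pass the test. C5.130 had a log2 fold change of -0.25 (SE 0.23, edgeR adjusted p = 0.412), C8.272 of 0.54 (SE 0.24, edgeR adjusted p = 0.0897) and C1.1229 of -0.05 (SE 0.18, edgeR adjusted p = 0.842). Of the 5 aldehyde dehydrogenase genes drawn, C5.251 and C6.127 were thus the ones with a called increase, and whether C5.251 differs from the others in its increase was not tested. The alcohol dehydrogenase gene C2.233 was at 3.61, 3.86 and 3.32 CPM in winter a, b and c and at 4.23, 3.68 and 3.43 CPM in YY-1 a, b and c, with overlapping values.

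**Figure D3:**
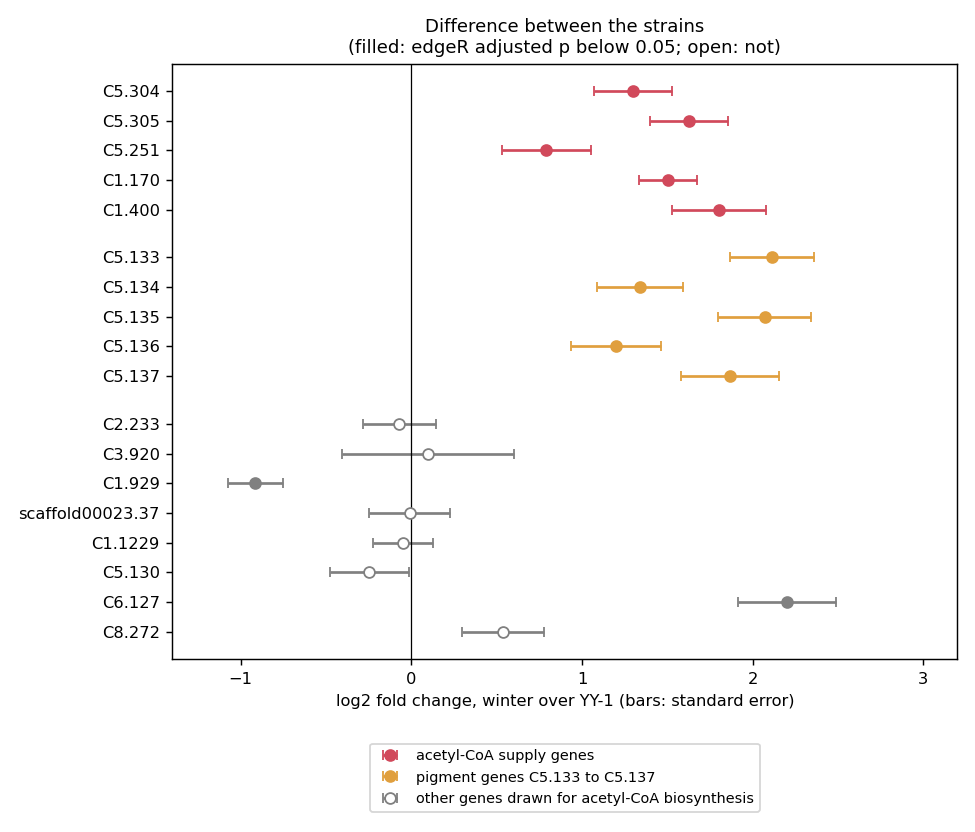
Log2 fold change of winter over YY-1 (horizontal axis, bars are SEs) for the 5 acetyl-CoA supply genes, the 5 pigment genes and the 8 other genes drawn for acetyl-CoA biosynthesis. Filled points passed an edgeR adjusted p of 0.05. The supply genes range from 0.79 to 1.81 and the pigment genes from 1.20 to 2.11, while 6 of the 8 other genes are open points.

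C5.251, C5.304 and C5.305 lie on scaffold C5, which also holds the pigment genes. C5.251 is 114 gene numbers beyond C5.137, and C5.304 is 53 gene numbers beyond C5.251, so none of them lies among the pigment genes C5.133 to C5.137. Of the 824 tested genes of scaffold C5, 164 were called higher and 208 lower in the winter strain. Within 3 gene numbers on either side of the 5 genes stand 24 other genes, all of which were tested. Of these 24 genes, 8 were called higher and 2 lower in the winter strain, and their median log2 fold change was 0.35, beside 22.5% higher and 25.5% lower over all genes tested.

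At each of the 4 positions, 1 of the immediate neighbours was called higher and the other was not. Next to C5.251, C5.250 had 539, 320.1 and 469 CPM in winter a, b and c, against 104, 127 and 78.4 CPM in YY-1 a, b and c. Its log2 fold change of 2.10 (SE 0.24, edgeR adjusted p = 8.76e-05) was above that of C5.251, and the log2 ratio of C5.250 over C5.251 differed between the strains by 1.30 (limma adjusted p = 0.000862).

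Next to C1.170, C1.169 had 1215, 833 and 1086 CPM in winter a, b and c, against 425, 359 and 448 CPM in YY-1 a, b and c (log2 fold change 1.35, SE 0.20, edgeR adjusted p = 0.000405). Both genes increased by similar fitted amounts, and the log2 ratio of C1.169 over C1.170 differed between the strains by -0.17, with a 95% interval of -0.65 to 0.31 (limma adjusted p = 0.539). The interval does not show that they moved alike. Next to C1.400, C1.399 had 6.53, 6.34 and 7.18 CPM in winter a, b and c, against 3.35, 3.51 and 3.43 CPM in YY-1 a, b and c (log2 fold change 0.96, SE 0.19, edgeR adjusted p = 0.00254).

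C5.306, beside the citrate lyase gene C5.305, had 5.58, 8.17 and 7.52 CPM in winter a, b and c, against 1.87, 3.26 and 1.97 CPM in YY-1 a, b and c. Its log2 fold change of 1.56 (SE 0.27, edgeR adjusted p = 0.00107) was close to that of C5.305, though its counts were only 19 to 129 a library. Within the winter strain it was highest in replicate b, where C5.304 and C5.305 were lowest. The strand and layout of the reads are not given in the sources used here, and whether reads of a neighbour were counted on any of these genes was not tested. On the other side, C5.303 was not called (log2 fold change -0.40, SE 0.20, edgeR adjusted p = 0.126).

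**Figure D4:**
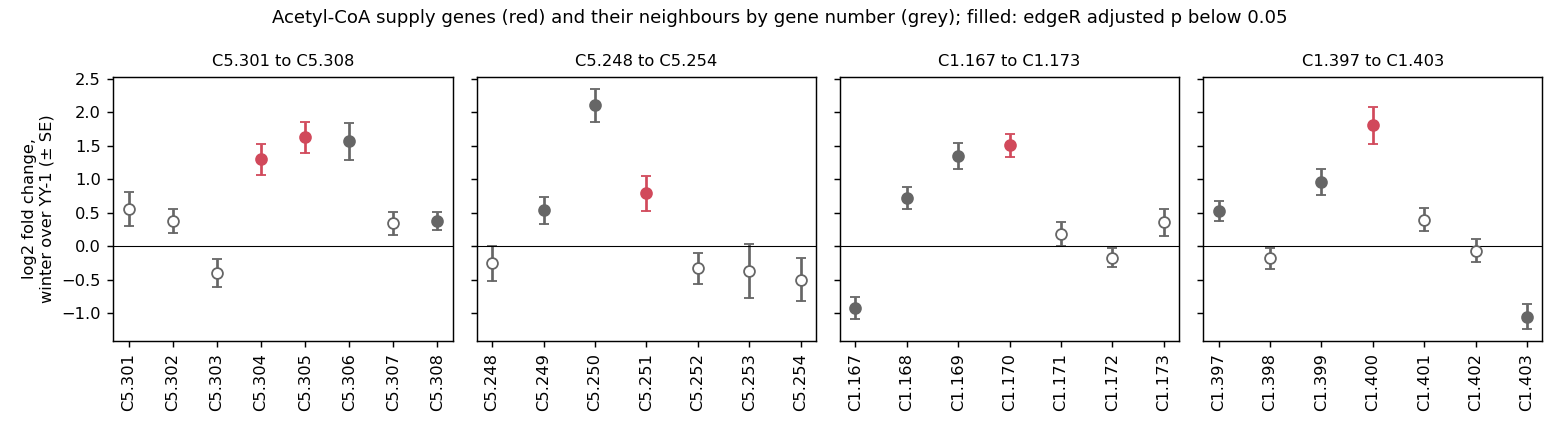
Log2 fold change of winter over YY-1 with its SE (vertical axis) for the acetyl-CoA supply genes (red) and the genes within 3 gene numbers of them (grey), in the order of their gene numbers. Filled points passed an edgeR adjusted p of 0.05. C5.306, C5.250, C1.169 and C1.399 are filled points beside a red one, at 1.56, 2.10, 1.35 and 0.96.

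To follow the acetyl-CoA supply genes together with the pigment genes, the oxidoreductase genes C5.133 and C5.135, the acetyltransferase gene C5.134, C5.136 and the polyketide synthase gene C5.137 were used. All 5 pigment genes were called higher in the winter strain, with log2 fold changes of 2.11 for C5.133, 1.34 for C5.134, 2.07 for C5.135, 1.20 for C5.136 and 1.87 for C5.137. The 6 libraries form 2 clusters by strain with 3 libraries each, so no correlation is given. Instead, each library was set against the mean of its own strain, which leaves the difference between the strains out.

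On the log2 scale, the mean of the 5 pigment genes deviated by 0.23, -0.32 and 0.09 in winter a, b and c, and by 0.36, 0.09 and -0.45 in YY-1 a, b and c. C5.304 deviated by 0.18, -0.28 and 0.11 in winter a, b and c, and by 0.21, 0.17 and -0.38 in YY-1 a, b and c. C5.305 deviated by 0.17, -0.26 and 0.08 in winter a, b and c, and by 0.23, 0.17 and -0.40 in YY-1 a, b and c. Both citrate lyase genes thus lay on the same side of the strain mean as the pigment genes in all 6 libraries, never further from them than 0.15.

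C5.251 deviated by 0.11, -0.38 and 0.27 in winter a, b and c, and by -0.33, 0.38 and -0.04 in YY-1 a, b and c. C5.251, C1.170 and C1.400 each lay on the same side as the pigment genes in 5 of 6 libraries. Their largest gaps to the pigment mean were 0.70 for C5.251, in YY-1 replicate a, 0.45 for C1.170 and 0.33 for C1.400. Deviations within a strain cancel out by construction, which makes agreement in side easy to reach. The share of all genes tested that lie on the same side as often was not computed, also for the citrate lyase genes.

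Low values in winter replicate b and in YY-1 replicate c were common to many genes. Winter replicate b was the lowest winter library in all 5 supply genes, all 5 pigment genes and 44% of all genes tested. YY-1 replicate c was the lowest YY-1 library in all 5 pigment genes and in 4 supply genes, C5.251 being the exception, and in 38.2% of all genes tested. Both held together for 4 supply genes, 5 pigment genes and 16.5% of all genes tested. The part of culture or library differences in the shared deviations was not tested.

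**Figure D5:**
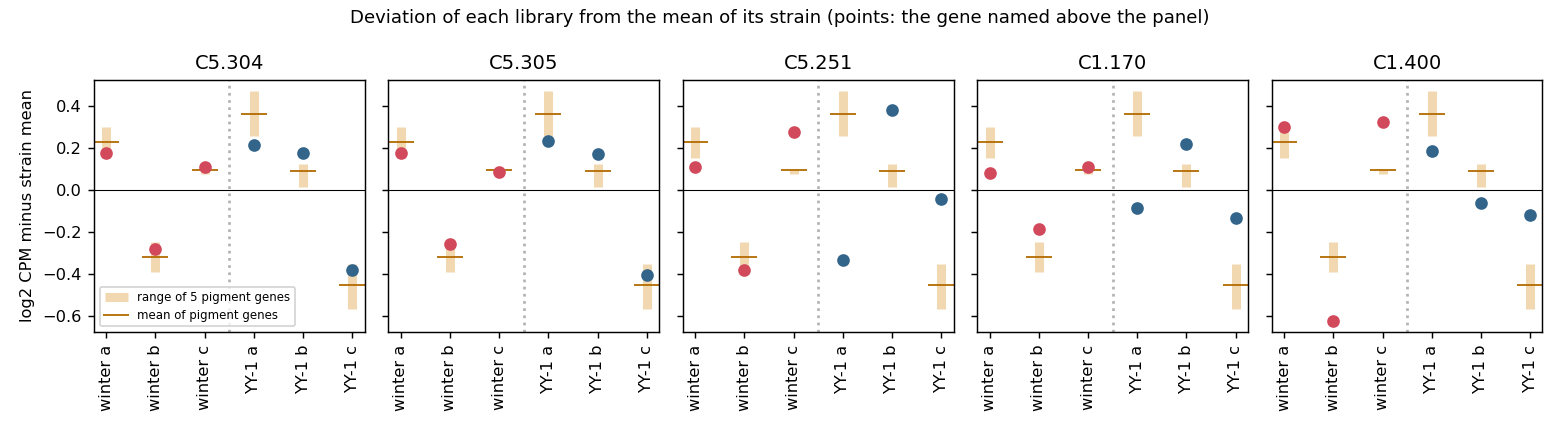
Log2 CPM of each gene minus the mean of its strain (vertical axis) in each library (horizontal axis), with points for the gene named above the panel, orange bands for the range of the 5 pigment genes and orange dashes for their mean. C5.304 and C5.305 stay within 0.15 of the pigment mean in every library, and C5.251 departs by 0.70 in YY-1 replicate a.

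Likeness of patterns was measured as the root mean square difference of log2 CPM, each gene centred on its own mean, over the 6 libraries. It was computed against 6817 other genes with a mean count of at least 50. The measure keeps the difference between the strains, so a place depends largely on how alike the fold changes of both genes are. The supply genes were picked for their increase in these libraries, so a place near an increased gene carries no test. The gene most like C5.304 was C1.897 (0.04), followed by the pigment gene C5.134 (0.06), with C5.136 at place 19 and C5.305 at place 27. C5.134 was between places 1 and 3 with any library left out but YY-1 replicate c, without which it was at place 9. The remaining pigment genes, which increased more than C5.304, stood at place 258 (C5.137), 529 (C5.135) and 594 (C5.133).

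For C5.305 the nearest genes were C5.122 (0.10) and the fatty acid synthase gene C5.127 (0.10), both with gene numbers just below C5.133. The study also covers C5.127 in its account of pigment biosynthesis. All 5 pigment genes C5.133 to C5.137 stood between places 10 and 51. C5.127 moved to place 17 without YY-1 replicate c. Once the difference between the strains was taken out, C5.304 was the gene nearest to C5.305, and the pigment genes stood at places 6 (C5.133), 8 (C5.134), 43 (C5.135), 228 (C5.137) and 451 (C5.136). Seen from C5.304 on the same measure, C5.305 was at place 2, and the pigment genes at places 5 (C5.133), 15 (C5.134), 47 (C5.135), 320 (C5.137) and 501 (C5.136).

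The nearest genes to C1.170 were C5.196 (0.08) and C4.153 (0.10), and the pigment genes stood between places 57 and 455, or 2321 and 5473 with the strain difference taken out. C1.400 was nearest to C8.502 (0.13) and C6.130 (0.14), with the pigment genes between places 52 and 106, or 608 and 1620 with the strain difference taken out. C5.251 was nearest to C8.499 (0.12) and C4.810 (0.12), and the pigment genes came at places 1882 to 5091, or 2794 to 5700 with the strain difference taken out.

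A last comparison asked whether the supply genes increased by as much as the pigment genes, by testing the log2 level of each gene over the mean of the 5 pigment genes in the same library. Only C5.251 was called lower relative to the pigment genes in the winter strain, with a log2 difference of -0.94 (95% interval -1.64 to -0.24, limma adjusted p = 0.00971). Its log2 level over the pigment genes was 0.17, 0.23 and 0.47 in winter a, b and c, against 0.54, 1.52 and 1.64 in YY-1 a, b and c. Of all genes tested, 91.3% were called lower on this scale, since few genes increased as much as the pigment genes. The call for C5.251 was lost without winter replicate a (limma adjusted p = 0.0615) or YY-1 replicate b (limma adjusted p = 0.0700), and when C5.134 or C5.136 alone stood for the pigment genes (limma adjusted p = 0.109 and 0.327).

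The differences of the other 4 genes were smaller than the threshold could resolve. They were -0.43 for C5.304 (95% interval -1.17 to 0.31), -0.10 for C5.305 (-0.85 to 0.65), -0.23 for C1.170 (-1.0 to 0.53) and -0.02 for C1.400 (-0.70 to 0.66). These intervals leave room for an increase well above or well below that of the pigment genes. C5.304 was called lower without YY-1 replicate c (-0.40, limma adjusted p = 0.0330) and when C5.133 (-0.81, limma adjusted p = 0.0123) or C5.135 (-0.78, limma adjusted p = 0.0486) alone stood for them.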

How the data were processed

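The study names independent biological triplicates for each strain. After removing reads of low quality or with adapter sequence, the authors aligned the rest by TopHat to transcripts predicted from their YY-1 assembly. HTSeq then gave the raw counts on unique exons that were deposited. The labels and the methods give different versions of both tools. The gene identifiers did not match the reference table at hand, which is for another strain, so no sequences, coordinates or lengths are used.

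Counts were scaled by TMM, filtered by filterByExpr (7355 of 7491 rows kept) and tested in edgeR 4.0.16 (R 4.3.3) by the quasi-likelihood test (model: strain), with Benjamini-Hochberg adjustment at 0.05. Fold changes are winter over YY-1. The ratios of consecutive genes (0.5 added to each count) and the levels over the pigment genes (log2 CPM, prior count 2) were tested in limma 3.58.1. The edgeR test and both limma tests were tried on simulated counts. Replicates differed by more than sampling noise (median chi-square 2.00 to 10.1 per pair, against 0.455), so each library counts once. The members, lists and tests were chosen with earlier results of these data known. Named genes are the 5 supply genes, the pigment genes, the other genes drawn for acetyl-CoA biosynthesis, genes within 3 gene numbers and the 2 nearest genes by pattern. Alternatives were other scalings, filters and tools (DESeq2 1.42.0), a replicate block, single pigment genes and each library left out.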

Additional observations from a re-analysis of the deposited data

How the results depend on the processing

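The log2 fold changes of C5.304, C5.305, C1.170 and C1.400 kept an adjusted p below 0.05 in each of their 12 alternatives, and C5.251 in 8 of 12, the exceptions being single libraries left out. The citrate lyase ratio stayed between -0.34 and -0.32 and was called in none of its alternatives, with limma adjusted p values of 0.0893 to 0.242. All of these used the same kind of fit, which takes the spread of a pair largely from the other pairs. The number of supply genes called lower than the pigment genes was 1. It was 2 over C5.133 alone, 0 over C5.134 alone, 2 over C5.135 alone and 0 over C5.136 alone. Those reference genes had log2 fold changes of their own of 2.11, 1.34, 2.07 and 1.20, in that order. The number was 0 to 2 with each library left out, and the cause of that change was not tested. Whether the replicate letters pair the samples was not settled. The deviations of same-lettered libraries correlated at 0.10, 0.28 and 0.10 for a, b and c, the first just under 0.1. Libraries of different letters correlated at -0.30 to 0.18. Winter a and winter b correlated best with their own letter, but winter c correlated best with YY-1 a. With the letter as a replicate block, all 5 genes were still called, C5.251 with a log2 fold change of 0.80 (edgeR adjusted p = 0.0248), and the citrate lyase ratio was again not called (limma adjusted p = 0.157). Library totals moved the median log2 fold change of all genes by -0.10. Depth limits C1.400, C5.306 and C2.233, whose YY-1 counts were at most 50 a library. It also limits C1.399, which had a lower mean CPM than C1.400 in the YY-1 strain.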
